A study of Arabidopsis thaliana with 27 samples.

Results

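The aliphatic glucosinolate genes of Arabidopsis described here were 10 loci out of the 32678 gene identifiers counted in every library. They were taken by locus identifier for their role in the pathway, with earlier results of these data known. Counts of the 10 set beside all genes are therefore descriptive. The 10 comprised 3 MYB transcription factors (MYB28, AT5G61420; MYB29, AT5G07690; MYB76, AT5G07700) and 4 genes that lengthen the side chain of methionine (BCAT4, AT3G19710; BAT5, AT4G12030; MAM1, AT5G23010; MAM3, AT5G23020). The other 3 were cytochrome P450 genes that begin the core structure (CYP79F1, AT1G16410; CYP79F2, AT1G16400; CYP83A1, AT4G13770). All 10 passed a filter on low counts that kept 21448 genes. MYB76, BCAT4 and CYP79F1 passed it only because of Col-0 and vil1-1 at ZT6. On the other groups alone 7 of the 10 would have been kept. For MYB76, BCAT4 and CYP79F1 a high level in Col-0 or vil1-1 at ZT6 was thus a condition of being tested. Their calls between these groups and lower ones are no independent support.

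RNA of whole seedlings, grown for about a week on MS medium at 22 °C with 8 h light and 16 h dark, was sequenced in 27 libraries. Times are zeitgeber times (ZT), in hours after the lights came on. Wild type (Col-0), the mutant lines vil1-1 and cop1-4 and the double mutant vil1-1cop1-4 were each sampled at ZT0, the end of the night, and at ZT6, well into the light period. The hy5-215 line was sampled at ZT0 alone, and each of the 9 groups held 3 libraries. VIL1 is a PHD-finger protein that works with Polycomb repressive complex 2, COP1 is a ubiquitin ligase that restrains the light response in the dark, and HY5 is a bZIP transcription factor that COP1 targets. Each mutation was represented by 1 allele, and whether replicates of a group were separate cultures is not stated in the labels, so the p-values reflect only how far these samples spread, and that spread may be technical.

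Glucosinolates are sulfur-rich defence compounds of the cabbage family that release toxic products when tissue is damaged, and the aliphatic ones are made from methionine. In the cytosol BCAT4 removes the amino group of methionine, BAT5 carries the resulting keto acid into the chloroplast, and MAM1 and MAM3 add carbons to it in a repeated cycle completed by an isomerase and a dehydrogenase. CYP79F1 and CYP79F2 turn the lengthened amino acid into an aldoxime and CYP83A1 oxidises it further, after which sulfur, glucose and sulfate are added by shared enzymes. MYB28, MYB29 and MYB76 are related activators of these enzyme genes, with MYB28 as the principal one in leaves.

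The genes lie on 4 chromosomes, with MYB29 beside MYB76, MAM1 beside MAM3 and CYP79F1 beside CYP79F2. Because the enzyme genes moved together in the libraries, the 250 bases before the annotated gene start were read from the RefSeq sequence of the TAIR10.1 assembly and searched on both strands for CACGTG, the G-box, and for its core ACGT, which every G-box contains and which plant bZIP proteins such as HY5 are known to bind. CACGTG was present in 1 of the 10 windows and in 6.49% of the 27443 windows of protein-coding genes. ACGT was present in 7 of the 10 and in 44.1% of all windows, and MYB29, BAT5 and MAM1 had none. The windows below are shown 5′ to 3′ on the gene's own strand with these motifs in capitals: CYP83A1 at chr4:7992430-7992679 on the minus strand, which holds the G-box, starting 43 bases before the gene; BCAT4 at chr3:6849583-6849832 on the minus strand, with 4 ACGT motifs; the neighbours CYP79F1 at chr1:5608432-5608681 and CYP79F2 at chr1:5604794-5605043, both on the plus strand, with 2 and 1; and MAM1 at chr5:7702791-7703040 on the plus strand, with no match.
CYP83A1: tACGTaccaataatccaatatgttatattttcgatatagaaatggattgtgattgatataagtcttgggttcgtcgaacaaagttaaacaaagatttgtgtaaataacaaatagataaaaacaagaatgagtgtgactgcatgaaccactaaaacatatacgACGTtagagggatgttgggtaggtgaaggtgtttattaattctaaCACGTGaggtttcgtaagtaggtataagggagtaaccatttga
BCAT4: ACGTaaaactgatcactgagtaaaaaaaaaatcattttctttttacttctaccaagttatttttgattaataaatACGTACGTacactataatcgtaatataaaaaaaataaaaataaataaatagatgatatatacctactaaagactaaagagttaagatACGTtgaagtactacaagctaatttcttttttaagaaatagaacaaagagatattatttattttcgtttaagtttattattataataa
CYP79F1: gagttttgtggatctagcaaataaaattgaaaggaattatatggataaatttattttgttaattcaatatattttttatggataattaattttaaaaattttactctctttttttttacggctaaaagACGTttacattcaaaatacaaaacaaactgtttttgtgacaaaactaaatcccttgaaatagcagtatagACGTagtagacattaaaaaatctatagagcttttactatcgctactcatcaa
CYP79F2: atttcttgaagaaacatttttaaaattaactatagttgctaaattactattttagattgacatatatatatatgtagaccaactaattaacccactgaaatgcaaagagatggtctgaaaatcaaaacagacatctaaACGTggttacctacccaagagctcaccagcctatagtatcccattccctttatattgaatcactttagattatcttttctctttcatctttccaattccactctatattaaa
MAM1: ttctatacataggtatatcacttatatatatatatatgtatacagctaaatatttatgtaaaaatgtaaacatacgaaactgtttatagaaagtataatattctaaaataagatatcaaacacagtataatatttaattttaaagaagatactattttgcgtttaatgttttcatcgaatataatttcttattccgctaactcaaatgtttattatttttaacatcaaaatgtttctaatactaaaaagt
These letters describe the windows and are no evidence of binding. Whether the motifs bear on the levels of these genes was not tested.

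Libraries held 19.7 to 33.6 M reads in genes (M, 1e6 reads), with a median of 23 M. Levels are given as counts per 1e6 reads (CPM) on library sizes scaled by TMM, a factor that corrects for differences in RNA composition. CPM is not divided by gene length, so it compares 1 gene between samples and not genes with each other. VIL1, the gene mutated in vil1-1, was read at 16.3 ± 0.343 CPM in Col-0 at ZT0 and 23.1 ± 1.01 at ZT6, against 5.12 ± 0.348 and 5.93 ± 1.19 in vil1-1 (mean ± SD, n = 3). COP1 and HY5 were still read in the lines mutant for them, so their counts do not check those labels. Root, green tissue, vein and guard cell markers were all read in every group, as the label of whole seedlings implies. In these bulk samples fewer cells of a type and less RNA per cell cannot be told apart.

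In wild-type seedlings the pathway rose as a whole over the light period. All 10 genes were higher in Col-0 at ZT6 than at ZT0, with a median log2 change of 5.04 over the 10 genes and 0.02 over all genes tested. The comparison called 36.9% of all genes higher (edgeR quasi-likelihood test, Benjamini-Hochberg adjusted p under 0.05), so a rise alone was common at this time of day. Each gene's 3 libraries at ZT6 lay above its 3 libraries at ZT0. This held for the 7 genes that the filter would have kept without Col-0 and vil1-1 at ZT6, and for the others. The share of all genes tested that were separated in this way was not counted.

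Among the regulators, MYB28 stood at 22.5, 19.3 and 21.7 CPM in the Col-0 libraries at ZT0 and at 47.5, 55.7 and 54.8 at ZT6. All libraries of the later time were higher, and the rise was 2.48-fold (log2 1.31 ± 0.10 SE, edgeR adjusted p = 2e-14). SE here is the absolute log2 change divided by the square root of the test's F statistic. It is not reliable where a group has 0 reads. MYB29 went from 0.673, 0.258 and 0.186 CPM to 24.2, 29.1 and 27 CPM. From near absence it reached a clear level in every ZT6 library, a 70-fold rise (log2 6.13 ± 0.21, edgeR adjusted p = 2.7e-25). MYB76 had 2 reads in the 3 ZT0 libraries together and 2.35, 3.18 and 3.39 CPM at ZT6, a ratio of 113 with a 95% exact Poisson interval of 30.9 to 937. Such intervals, and the floors used below where a group had 0 reads, cover counting error only.

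The genes of chain elongation rose more than MYB28 did. BCAT4, which starts the branch, was at 0.112, 0.301 and 1.19 CPM at ZT0 and at 44.6, 73.0 and 59.6 CPM at ZT6, 107-fold higher (log2 6.74 ± 0.35, edgeR adjusted p = 4e-12). BCAT4 overlaps the annotated gene AT3G19700, so reads of both loci cannot be fully told apart without the strand setting of the counting. BAT5, the keto acid carrier, went from 1.49, 1.33 and 1.45 CPM to 37.6, 51.1 and 44.8 CPM, 30.9-fold. MAM1, the main chain-lengthening synthase for short chains, was at 7.44, 8.48 and 8.90 CPM at ZT0 and at 196, 262 and 212 CPM at ZT6, 27-fold higher (log2 4.75 ± 0.21, edgeR adjusted p = 4.4e-14). MAM3, which also makes long chains, rose 19.6-fold, from 0.785, 1.03 and 0.484 to 11.6, 17.2 and 16.1 CPM.

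The core P450 genes followed. CYP79F1 had 0.112, 0.387 and 0.782 CPM at ZT0 and 139, 208 and 164 CPM at ZT6. The groups lay far apart, and the 391-fold rise (log2 8.61 ± 0.33, edgeR adjusted p = 3.4e-10) exceeded that of its neighbour CYP79F2, which rose 29.3-fold from 0.747, 0.775 and 1.23 to 23.0, 31.0 and 27.7 CPM; the difference between these rises was not tested. Their coding sequences are 91.4% identical over 1614 aligned bases, with an identical run of 100 bases, so their counts are uncertain to the extent that reads fall in such stretches. CYP83A1 rose 34.9-fold, from 6.39, 7.83 and 6.10 to 217, 262 and 228 CPM. At ZT6 replicate 1 of Col-0 was the lowest of the 3 libraries for all 10 genes and replicate 2 the highest for 9, MYB76 being the exception, so the spread within that group was largely shared between the genes. Vein markers summed to 222 to 241 CPM in Col-0 at ZT6 against 152 to 154 at ZT0. Root markers summed to 63.8 to 66.6 against 53.2 to 54.9 and guard cell markers to 35.1 to 37.4 against 42.5 to 47.2. Of the 4 vein markers 2 were called higher and 2 lower (median log2 0.02), so their sum does not describe each of them. The part of these markers was not tested.

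**Figure D1:**
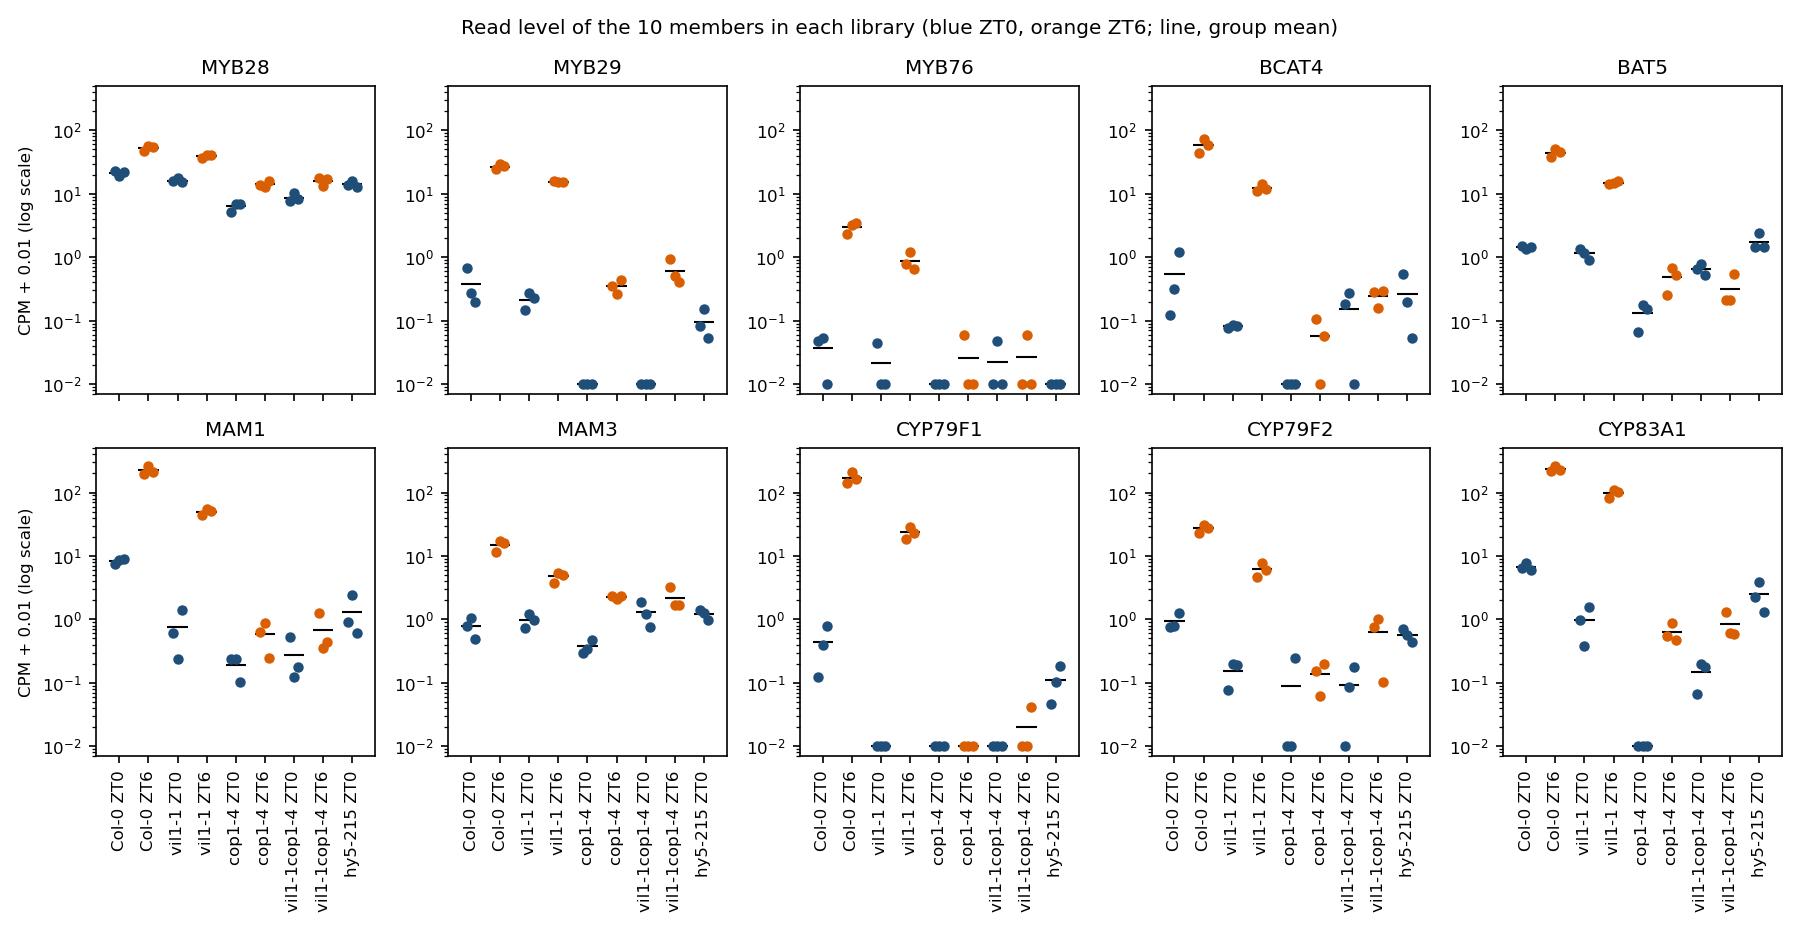
Level of each gene in each of the 27 libraries, as CPM plus 0.01 on a log axis, by genotype and time; dots are libraries, blue at ZT0 and orange at ZT6, and lines are group means. In every panel Col-0 at ZT6 is highest and vil1-1 at ZT6 next, with no overlap between them, and the means of cop1-4 and the double mutant at ZT6 lie below the Col-0 mean of ZT0 for all genes except MYB29 in the double mutant and MAM3 in both lines.

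In the vil1-1 line the genes were still read at ZT6, at lower levels than in Col-0. All 10 genes were lower in vil1-1 than in Col-0 at ZT6, where 10.6% of all genes tested were called lower, and the 10 had a median log2 change of −1.68 against −0.01 over all genes. None of the 10 had overlapping groups, and the share of all genes tested without overlap was not counted. The levels ranged from 75.1% of Col-0 for MYB28 to 13.9% for CYP79F1.

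MYB28 was at 36.9, 41.4 and 40.3 CPM in vil1-1 at ZT6, 1.33-fold lower (log2 −0.41 ± 0.09, edgeR adjusted p = 0.001). MYB29 was at 15.9, 15.5 and 15.3 CPM, 58.2% of Col-0, with the 3 libraries close together. MYB76 was at 0.783, 1.2 and 0.643 CPM, 29.4% of Col-0. The regulators thus kept between 29.4 and 75.1% of their wild-type level.

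For the chain-elongation genes the share kept was smaller than for MYB28 and MYB29. BCAT4 was at 10.9, 14.5 and 11.9 CPM (21% of Col-0, edgeR adjusted p = 1.5e-06), and MAM1 at 43.8, 54.3 and 50.6 CPM (22.1%, edgeR adjusted p = 2.5e-08). BAT5 kept 33.7%, at 14.3, 14.8 and 15.8 CPM, and MAM3 31.7%, at 3.76, 5.46 and 5.06 CPM. All 12 of these vil1-1 libraries lay below every Col-0 library of the same gene. Of the core genes, CYP79F1 fell most, to 18.6, 29.0 and 23.1 CPM, 7.16-fold lower (log2 −2.84 ± 0.19, edgeR adjusted p = 1.7e-06). CYP79F2 was at 4.66, 7.62 and 6.07 CPM (22.5% of Col-0), and CYP83A1 kept the largest share of any enzyme gene, 41.3%, at 82.9, 108 and 102 CPM (log2 −1.27 ± 0.15, edgeR adjusted p = 8.1e-06). Whether the falls of single genes differed from each other was not tested. Seed markers were higher in vil1-1 at ZT6, with a summed level of 8.04 to 17.4 CPM over 4 markers against 0.928 to 1.75 CPM in Col-0 and 1 marker at 0 reads in both, and their part in these differences was not tested. Vein markers summed to 206 to 214 CPM against 222 to 241 CPM, and green-tissue markers to 23700 to 24800 against 25400 to 26200 CPM. Root markers summed to 64.6 to 77.6 against 63.8 to 66.6 CPM. Of the green-tissue markers 1 was called lower, and no vein or root marker was called.

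In cop1-4 the enzyme genes were almost unread at ZT6. All 10 genes were lower than in Col-0, with a median log2 change of −7.39, or −7.58 when genes with at most 3 reads are set at their bound or ratio, against −0.02 over all genes. Here 34% of all genes tested were called lower, so that being lower was in itself common. In cop1-4 8 of the 10 genes had a mean under 1 CPM at ZT6, against 0 of the 10 in Col-0.

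The exceptions were MYB28 and MAM3. MYB28 was at 13.6, 13.0 and 15.6 CPM in cop1-4 at ZT6, 26.8% of Col-0 (log2 −1.9 ± 0.10, edgeR adjusted p = 1.2e-17). MAM3 was at 2.32, 2.1 and 2.29 CPM, 14.9% of Col-0 (log2 −2.73 ± 0.22, edgeR adjusted p = 1.8e-13). Both were well below every Col-0 library and still read in all 3 mutant libraries.

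The other regulators lost nearly all their reads. MYB29 stood at 0.338, 0.256 and 0.420 CPM, 77.4-fold lower (log2 −6.27 ± 0.23, edgeR adjusted p = 6.3e-24). MYB76 had 1 read in the 3 libraries, a ratio of 181 with a 95% exact Poisson interval of 32.2 to 7180. Thus MYB28 was the only one of the 3 MYB genes above 1 CPM in cop1-4.

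Of the enzyme genes, BCAT4 had 3 reads in the 3 cop1-4 libraries against 4993 in Col-0, a ratio of 1180 with a 95% exact Poisson interval of 402 to 5710. MAM1 was at 0.628, 0.872 and 0.233 CPM, 390-fold lower (log2 −8.61 ± 0.32, edgeR adjusted p = 4.2e-15). BAT5 was at 0.241, 0.666 and 0.513 CPM, 93.3-fold lower. Each had been above 37 CPM in every Col-0 library. CYP79F1 had 0 reads among the 66.2 M gene reads of cop1-4 at ZT6 against 14452 reads in Col-0; the floor of 3 reads over the group corresponds to 0.0487 CPM, and the gene was at least 3410-fold lower. CYP79F2 was at 0.145, 0.0513 and 0.187 CPM, 202-fold lower, and CYP83A1 at 0.531, 0.872 and 0.467 CPM, 379-fold lower (log2 −8.57 ± 0.28, edgeR adjusted p = 1.1e-14). Root markers summed to 40.1 to 44.4 CPM in cop1-4 at ZT6 against 63.8 to 66.6 in Col-0, vein markers to 112 to 116 against 222 to 241, green-tissue markers to 37600 to 38700 against 25400 to 26200, and seed markers to 0.327 to 0.359 against 0.928 to 1.75. Of the 5 green-tissue markers 2 were called higher and 2 lower in cop1-4 at ZT6 (median log2 −0.04), so their sum does not describe each of them. The part of these markers in the result was not tested.

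**Figure D2:**
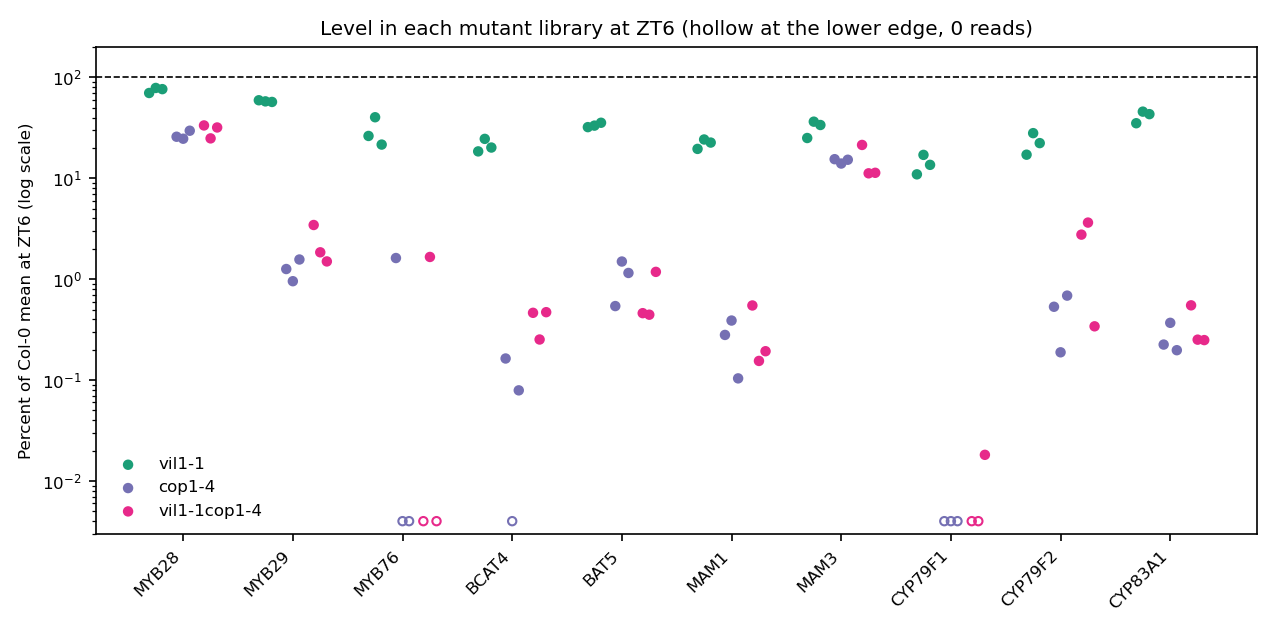
Level of each gene in each mutant library at ZT6 as a percent of the Col-0 mean at ZT6 (dashed line, 100), on a log axis; dots are libraries in colours for vil1-1, cop1-4 and the double mutant vil1-1cop1-4, and hollow dots at the lower edge are libraries with 0 reads. The vil1-1 libraries of all 10 genes lie above those of cop1-4 and the double mutant. Libraries of cop1-4 and the double mutant overlap for every gene except BCAT4, where the double mutant lies higher. MYB28 (26.8% in cop1-4) and MAM3 (14.9%) keep the largest shares in both lines.

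The genes were low in the double mutant too. At ZT6 all 10 genes were lower in vil1-1cop1-4 than in Col-0, where 33.2% of all genes tested were called lower, with a median log2 change of −7.24 (−7.47 with bounds) against −0.02 over all genes. MYB28 was at 17.6, 13.1 and 16.8 CPM, 3.29-fold lower, and MAM3 at 3.21, 1.68 and 1.70 CPM, 6.68-fold lower. MAM1 was at 1.23, 0.347 and 0.433 CPM, 318-fold lower (log2 −8.31 ± 0.29, edgeR adjusted p = 2.5e-15), with replicate 1 the highest. CYP79F1 had 1 read, a ratio of 13600 with a 95% exact Poisson interval of 2430 to 535000. Against vil1-1, where 29.5% of all genes tested were called lower, all 10 genes were lower too, with a median log2 change of −5.57. In the double mutant at ZT6 vein markers summed to 109 to 115 CPM, green-tissue markers to 37100 to 43200, root markers to 50.4 to 53.7, guard cell markers to 25.8 to 31.2 and seed markers to 4.06 to 6.03. None of these ranges overlapped that of Col-0 at ZT6, and their part was not tested. The sums do not describe each marker. Of the 5 green-tissue markers 2 were called higher and 3 lower (median log2 −0.15). Of the 3 guard cell markers 1 was higher and 1 lower (median 0.17), and of 3 tested seed markers 1 was higher (median −0.21).

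Set directly against cop1-4 at ZT6, the double mutant differed in 0 of the 10 genes past the threshold, while 17.8% of all genes tested were called in either direction. Without adjustment 2 would have passed 0.05 in edgeR, MYB29 (log2 0.84 ± 0.40, edgeR adjusted p = 0.15) and CYP79F2 (log2 2.06 ± 0.80, edgeR adjusted p = 0.079). DESeq2 called 1, CYP79F2 (adjusted p = 0.02), as did edgeR without replicate 3 of the double mutant at ZT6 (log2 2.66, adjusted p = 0.0019). In that library CYP79F2 was at 0.0928 CPM, while the other two double-mutant libraries were at 0.752 and 0.990 CPM, above the 0.0513 to 0.187 CPM of cop1-4. A p that misses the threshold does not show that the lines were alike, and most of these genes had too few reads to resolve a moderate difference. At ZT0 the double mutant was above cop1-4 in 3 of the 10 genes, where 9.36% of all genes tested were called higher. BAT5 was at 0.630, 0.785 and 0.509 CPM against 0.0573, 0.168 and 0.141 CPM (5.17-fold, log2 2.37 ± 0.54, edgeR adjusted p = 0.0014), with no overlap. MAM3 was 3.38-fold higher (edgeR adjusted p = 0.0035) and MYB28 1.39-fold higher (edgeR adjusted p = 0.017), the latter not past the threshold without replicate 1 of cop1-4 at ZT0 (adjusted p = 0.11) or replicate 2 of the double mutant at ZT0 (adjusted p = 0.19).

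The difference between vil1-1 and Col-0 at ZT6 was tested against that between the double mutant and cop1-4. The term was above 0 for all 10 genes and passed the threshold for 6, where 8.76% of all genes tested had a positive call. For MYB76 and CYP79F1 the sign rests on at most 1 read in cop1-4 and in the double mutant. A positive term means that the vil1-1 mutation came with a smaller fall or a rise in the cop1-4 background. The values were 0.59 for MYB28 (edgeR adjusted p = 0.0042), 1.61 for MYB29 (0.0064) and 1.63 for MAM3 (0.00047), all in log2 units. CYP79F2 (4.2), BCAT4 (4.45) and MAM1 (2.46) rest on 8, 3 and 35 reads in the lowest group, and the calls of BCAT4 and MAM1 were lost under 11 and 8 of 17 alternatives. Without replicate 1 of the double mutant at ZT6 the count was 3, with MYB29 at 1.12 (adjusted p = 0.11), BCAT4 at 4.33 (0.12) and MAM1 at 1.64 (0.33). At these low counts in cop1-4 a further fall would have been hard to detect. At ZT0 the same term passed the threshold for MYB28 (0.86, edgeR adjusted p = 0.0013) and BAT5 (2.7, edgeR adjusted p = 0.0025). That is 2 of the 10 against a positive call in 4.21% of all genes tested. The fitted term was above 0 for all 10 genes, but MYB29 and CYP79F1 had 0 reads in both cop1-4 and the double mutant. For them it only restates the difference between vil1-1 and Col-0, and MYB76 had at most 2 reads in any of the groups, so these signs say nothing about the term.

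At the end of the night 6 of the 10 genes had a mean under 1 CPM in Col-0, and fewer differences could be resolved. MYB28 (21.1 CPM), MAM1 (8.27 CPM) and CYP83A1 (6.78 CPM) had the highest means there. In vil1-1 4 of the 10 were lower than in Col-0, against 4.78% of all genes tested, and the median log2 change was −1.77 (−2.65 over the 9 genes with a fold or bound). MAM1 was at 0.609, 0.223 and 1.41 CPM against 7.44 to 8.90 CPM in Col-0, 11-fold lower (log2 −3.46 ± 0.40, edgeR adjusted p = 6.8e-06). CYP83A1 was at 0.982, 0.371 and 1.55 CPM against 6.10 to 7.83 CPM, 6.89-fold lower (edgeR adjusted p = 4.7e-05). For both, every vil1-1 library lay below every Col-0 library. CYP79F2 was 6.28-fold lower (edgeR adjusted p = 0.0082) and MYB28 1.31-fold lower (edgeR adjusted p = 0.011); both calls were lost without replicate 3 of Col-0 at ZT0 (adjusted p = 0.053 and 0.05) or replicate 1 of vil1-1 at ZT0 (adjusted p = 0.054 and 0.055), which left 2. That of MYB28 was also lost without replicate 1 of Col-0 (adjusted p = 0.066) or replicate 3 of vil1-1 (adjusted p = 0.051). CYP79F1 had 0 reads in vil1-1 against 33 in Col-0, at least 12-fold lower, and did not pass the threshold (edgeR adjusted p = 0.11), though DESeq2 called it (adjusted p = 3e-05), as did edgeR with a replicate block (0.00019) or with only the groups compared (0.00066). BCAT4, with 6 reads against 42, was at log2 −2.85 ± 1.07 (edgeR adjusted p = 0.11) and was called by DESeq2 (0.023), with only the groups compared (0.015) and without replicate 1 of Col-0 (0.041). MYB29 (log2 −0.88 ± 0.47) and BAT5 (log2 −0.33 ± 0.24) did not pass and overlapped Col-0, and MYB76 had 1 read against 2. MAM3 was at 0.711, 1.19 and 0.974 CPM and overlapped Col-0 (log2 0.33 ± 0.35, edgeR adjusted p = 0.66). Seed markers summed to 9.02 to 19.9 CPM in vil1-1 at ZT0 against 1.01 to 2.9 CPM in Col-0. Vein markers summed to 157 to 177 against 152 to 154 and guard cell markers to 37.8 to 39.4 against 42.5 to 47.2. Only 1 of the 4 vein markers was called, higher, and no guard cell marker was called. The part of these markers was not tested.

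In cop1-4 at ZT0 9 of the 10 genes were lower than in Col-0, where 33.9% of all genes tested were called lower, and 5 genes had 0 reads. The median log2 change was −3.32 over the 9 genes with a fold, with bounds for genes at 0 reads. MYB28 was at 5.22, 6.81 and 6.86 CPM, 3.35-fold lower (log2 −1.74 ± 0.12, edgeR adjusted p = 1.2e-14), or 29.9% of Col-0, and MAM3 kept more, 47.5%. CYP83A1 had 0 reads among 72 M against 517 in Col-0, at least 127-fold lower, and MAM1 was 45.5-fold lower at 0.229, 0.223 and 0.094 CPM. BAT5 was 11.2-fold lower, and MYB29 and BCAT4, also at 0 reads, were at least 7.12-fold and 10.3-fold lower. CYP79F2 was 9.96-fold lower, with its 5 reads all in replicate 3, and MYB76 had 0 reads against 2 and did not pass the threshold. The calls for MAM3 (log2 −1.02 ± 0.46, edgeR adjusted p = 0.049) and CYP79F1 (at least 8.11-fold, edgeR adjusted p = 0.048) lay at the threshold and were lost when any of several single libraries was left out (adjusted p = 0.093 to 0.19 and 0.069 to 0.13). Root markers summed to 23.2 to 30.3 CPM in cop1-4 at ZT0 against 53.2 to 54.9 CPM in Col-0. Vein markers summed to 123 to 125 against 152 to 154, though 1 of the 4 was called higher and 2 lower (median log2 −0.19). Green-tissue markers summed to 59100 to 68200 against 24500 to 25500, though 2 of the 5 were called higher and 1 lower (median log2 −0.03). Guard cell markers summed to 30.5 to 32.8 against 42.5 to 47.2, though 1 of the 3 was called higher and 1 lower (median log2 −0.19). Seed markers summed to 0.229 to 0.335 against 1.01 to 2.9. The part of these markers was not tested. In the double mutant at ZT0 7 of the 10 were lower, where 33.8% of all genes tested were, and 1 of the 7, CYP79F1 (at least 8.86-fold, edgeR adjusted p = 0.042), lost its call under 6 of 11 alternatives (adjusted p up to 0.12). Green-tissue markers summed there to 65000 to 67500 CPM, with 2 of the 5 called higher and 1 lower (median log2 0.02). Vein markers summed to 132 to 147, guard cell markers to 31.4 to 34.3 and seed markers to 3.45 to 6.76. Of the 4 vein markers 1 was called higher and 2 lower, and of the 3 guard cell markers 1 higher and 2 lower. The part of these markers was not tested. MAM3 was not among the 7 lower genes, at 1.89, 1.2 and 0.735 CPM (log2 0.74 ± 0.35, edgeR adjusted p = 0.06). It was called higher without replicate 2 of Col-0 or replicate 3 of the double mutant at ZT0 (edgeR adjusted p = 0.028 and 0.019). Against vil1-1 at ZT0 the double mutant was lower in 4 of the 10, where 34% of all genes tested were called lower, a share near that background.

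The hy5-215 line had a smaller change at ZT0. It was lower than Col-0 in 4 of the 10 genes, where 19% of all genes tested were called lower, with a median log2 change of −1.22 (−0.97 over the 9 genes with a fold). MAM1 was at 0.899, 2.43 and 0.604 CPM, 6.53-fold lower (log2 −2.71 ± 0.37, edgeR adjusted p = 7.7e-06), and CYP83A1 at 2.23, 3.92 and 1.30 CPM, 2.76-fold lower (log2 −1.47 ± 0.31, edgeR adjusted p = 0.00094). MYB28 was at 13.8, 15.8 and 12.6 CPM, 1.51-fold lower (edgeR adjusted p = 2.7e-05), and MYB29 at 0.0719, 0.140 and 0.0432 CPM, 4.34-fold lower (edgeR adjusted p = 0.0042); the last was not past the threshold without replicate 1 of Col-0 at ZT0 (adjusted p = 0.12). For all 4 the hy5-215 libraries lay below those of Col-0. BAT5, at 1.44, 2.38 and 1.42 CPM, did not pass the test (log2 0.27 ± 0.23, edgeR adjusted p = 0.38). Neither did MAM3 (log2 0.68 ± 0.34, edgeR adjusted p = 0.11). CYP79F1, with 7 reads against 33 and overlapping groups, did not pass (log2 −2.09 ± 1.26, edgeR adjusted p = 0.22). It was called by DESeq2 (adjusted p = 0.0022) and by edgeR with a replicate block (0.0068) or with only the groups compared (0.029). The accession numbers of the hy5-215 samples stand apart from those of the other lines, and no label gives a batch, so batch and genotype cannot be told apart. Seed markers summed to 102 to 111 CPM in hy5-215 against 1.01 to 2.9 in Col-0, and vein markers to 196 to 209 against 152 to 154. Green-tissue markers summed to 29600 to 31500 against 24500 to 25500. Guard cell markers summed to 49 to 54.6 against 42.5 to 47.2 and root markers to 56.5 to 78.5 against 53.2 to 54.9. These sums do not describe each marker. Guard cell markers had 1 higher and 1 lower call (median log2 −0.15), and root markers 1 higher and 1 lower (median −0.22). Of the 4 vein markers 2 were called higher and 1 lower (median 0.19). The part of these markers in the result was not tested. The comparisons of mutants with Col-0 at a time share the Col-0 libraries.

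**Figure D3:**
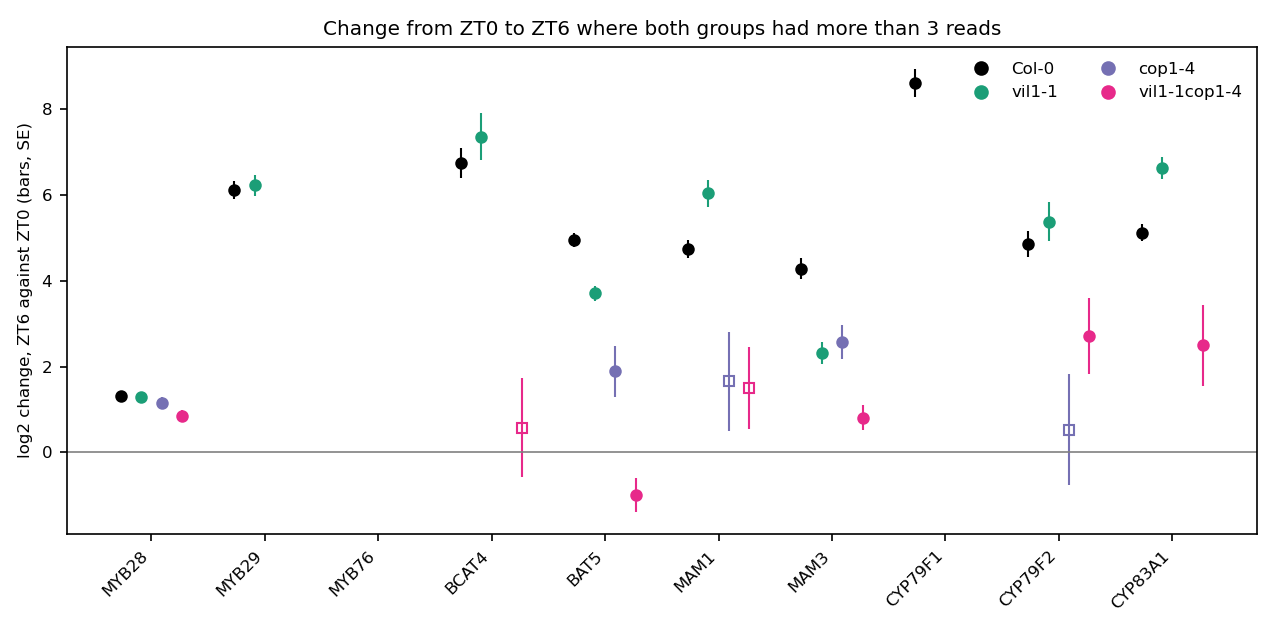
Change from ZT0 to ZT6 in log2 units for each gene in Col-0, vil1-1, cop1-4 and the double mutant vil1-1cop1-4, from edgeR. Bars are SE derived from the F statistic. Filled circles passed the threshold and open squares did not. A gene is drawn for a line only where both times had more than 3 reads. MYB28 rises in all 4 lines, by 0.86 in the double mutant to 1.31 in Col-0, while BAT5 goes from 4.95 in Col-0 to −0.99 in the double mutant.

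The rise from ZT0 to ZT6 remained in vil1-1. All 10 genes were higher at ZT6 within that line, where 35.7% of all genes tested were called higher, with a median log2 change of 5.88 (6.14 with bounds). Folds were 75.3 for MYB29, 164 for BCAT4, 65.9 for MAM1 and 99.8 for CYP83A1, and CYP79F1 went from 0 reads to 2018, at least 676-fold. For BAT5 and MAM3 the rise was smaller than in Col-0 by a log2 difference of −1.24 ± 0.27 (edgeR adjusted p = 0.0064) and −1.97 ± 0.40 (edgeR adjusted p = 0.0034), 2 of 10 genes against 0.998% of all genes tested. Without replicate 1 of vil1-1 at ZT0 the count was 1, BAT5 being at an adjusted p of 0.069 (edgeR). The log2 difference from Col-0 was above 0 for 6 of the 10 genes, with a median of 0.31 over the 10, and no positive value passed the threshold. Among the 6 were CYP83A1 (1.52 ± 0.41, edgeR adjusted p = 0.067), MAM1 (1.29 ± 0.48, edgeR adjusted p = 0.2) and CYP79F1, which had 0 reads in vil1-1 at ZT0.

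In cop1-4 5 of the 10 genes rose from ZT0 to ZT6, where 30.2% of all genes tested did. MYB28 rose 2.23-fold (log2 1.16 ± 0.13, edgeR adjusted p = 1.8e-09), and the difference of that rise from Col-0 was −0.16 ± 0.17 in log2 units (edgeR adjusted p = 0.47). MAM3 rose 5.98-fold, BAT5 3.7-fold, MYB29 at least 6.43-fold and CYP83A1 at least 11.6-fold, the last 2 from 0 reads. The rise was smaller than in Col-0 for 3 of the 10 genes, where 25.8% of all genes tested had a negative call, a share near that background. The 3 were BAT5 (log2 difference −3.06 ± 0.85, edgeR adjusted p = 0.0028), MAM3 (−1.71 ± 0.57, 0.013) and CYP79F2 (−4.34 ± 1.71, 0.041). Without replicate 3 of cop1-4 at ZT0 the count was 1, with MAM3 at −1.38 (adjusted p = 0.13) and CYP79F2, whose 5 reads at ZT0 were all in that library, at −0.08 (adjusted p = 0.81). The CYP79F2 call was lost under 7 of 17 alternatives. For MYB29, MYB76, BCAT4, CYP79F1 and CYP83A1 a group at 0 reads left that difference without a usable estimate.

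In the double mutant 5 genes rose and 1 fell from ZT0 to ZT6, where 31.7% and 32.6% of all genes tested did. Without replicate 1 of the double mutant at ZT6 the count of calls was 3. MYB28 rose 1.82-fold (log2 0.86 ± 0.12, edgeR adjusted p = 8.1e-08), less than in Col-0 (log2 difference −0.45 ± 0.15, edgeR adjusted p = 0.015). That difference did not pass without replicate 2 of the double mutant at ZT0 (−0.23, adjusted p = 0.26) or at ZT6 (−0.29, adjusted p = 0.1). BAT5 fell by 0.99 on the log2 scale, from 0.630, 0.785 and 0.509 to 0.205, 0.198 and 0.526 CPM (edgeR adjusted p = 0.026). The groups overlapped, and the call was lost without replicate 1 or 2 of the double mutant at ZT6 or replicate 2 at ZT0 (adjusted p = 0.15, 0.095 and 0.18). The change of BAT5 differed from that of Col-0 by −5.94 ± 0.47 (edgeR adjusted p = 3.6e-14). In all, 6 genes had a smaller change than in Col-0, where 26.5% of all genes tested had a negative call, and without replicate 2 of the double mutant at ZT0 the count was 2, BAT5 and MAM3. The calls of MAM1 and MYB76 were lost under 12 and 8 of 17 alternatives.

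The wider pathway was read from lists of genes by role, outside the 10. At ZT6 in vil1-1, where 10.6% of all genes tested were called lower and 10.4% higher, 5 of 6 other chain-elongation genes were lower, with a median log2 change of −0.97. They included IPMDH1, a dehydrogenase of the cycle, at 59.3 ± 5.03 CPM against 186 ± 23.8 CPM in Col-0 (3.12-fold), and BCAT3, which restores the amino group, at 108 ± 3.67 against 173 ± 16.2 CPM (1.6-fold). All 8 genes of the late core steps were lower, with a median of −0.85, among them SUR1, the C-S lyase, at 57 ± 5.02 against 105 ± 13.5 CPM, and SOT17, a sulfotransferase for aliphatic forms, at 15 ± 0.769 against 39 ± 6.47 CPM. Of 5 tested genes of side-chain modification 2 were lower, FMO GS-OX1 (5.09-fold) and FMO GS-OX3 (2.85-fold), both oxygenases of the side-chain sulfur. Of the 6 upstream regulators 1 was lower, SDI2, a sulfur-deficiency protein known to restrain the pathway (log2 −0.41 ± 0.11, edgeR adjusted p = 0.0044). Of the 2 transporters GTR2 was lower (log2 −0.2 ± 0.06, edgeR adjusted p = 0.014).

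In cop1-4 at ZT6, where 34% of all genes tested were called lower and 32.6% higher, the same lists had 5 of 6 lower (median −3.96), 8 of 8 lower (median −1.93) and 4 of 5 lower (median −2.41), against a median of −0.02 over all genes. IPMDH1 was at 1.84 ± 0.369 CPM (101-fold lower than Col-0) and IPMI SSU2, an isomerase subunit, at 0.816 ± 0.16 against 107 ± 13.5 CPM (130-fold). FMO GS-OX3 was at 0.326 ± 0.0844 against 34.2 ± 5.6 CPM (103-fold). By contrast SUR1, at 36.5 ± 2.66 CPM, was 2.86-fold lower, and BCAT3, at 72.1 ± 3.07 CPM, 2.39-fold lower. Upstream regulators had 4 genes higher and 1 lower: MYC4, a bHLH partner of these MYB proteins, was lower (log2 −0.6 ± 0.09, edgeR adjusted p = 6.7e-08), while its relative MYC3 was higher (log2 0.31 ± 0.06, edgeR adjusted p = 8.7e-06).

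The indolic branch, which makes glucosinolates from tryptophan with separate regulators, served as the nearest comparison. In Col-0 from ZT0 to ZT6 4 of its 7 genes rose and 3 fell, against 36.9% and 34% of all genes tested, with MYB34, an indolic MYB factor, 2.27-fold higher and CYP79B3, the P450 that starts the branch, 1.46-fold lower. At ZT6 in vil1-1 4 were lower and 1 higher, against 10.6% and 10.4% of all genes tested, with a median of −0.26: CYP79B3 was at 60.1 ± 0.801 against 75.2 ± 2.02 CPM and MYB51 at 9.04 ± 0.881 against 6.53 ± 0.585 CPM. In cop1-4 6 were lower and 1 higher (median −0.94), against 34% and 32.6% of all genes tested, MYB34 being 3.18-fold lower and MYB51 2.23-fold higher. In the double mutant 2 were lower and 3 higher (median 0.23), against 33.2% and 32.5% of all genes tested, and against cop1-4 5 of the 7 were higher, where 10.2% of all genes tested were, MYB51 at 30.1 ± 4.9 against 14.6 ± 1.52 CPM among them. No test of the difference between the branches was made.

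**Figure D4:**
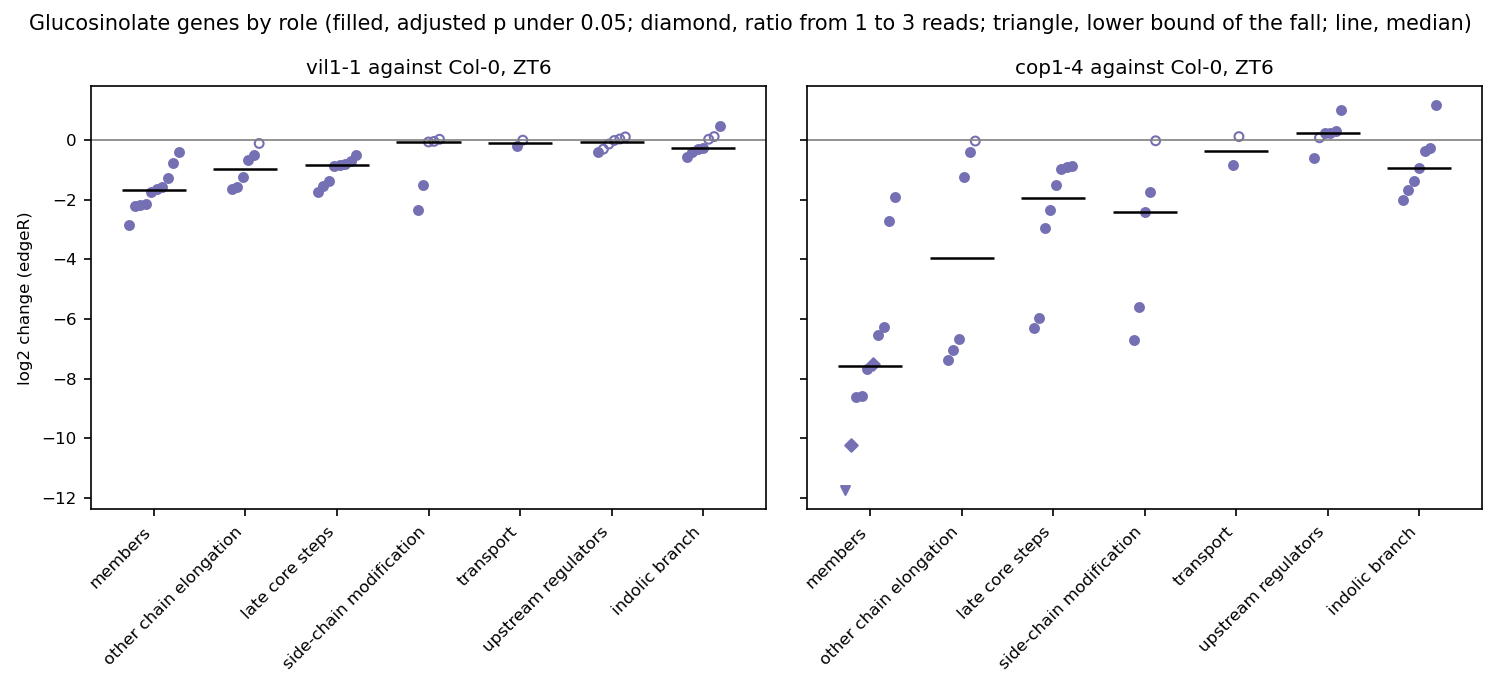
Change at ZT6 against Col-0 in log2 units for the 10 genes (members) and for 6 further lists of glucosinolate genes by role, in vil1-1 (left) and cop1-4 (right); each mark is a gene, filled where the edgeR adjusted p is under 0.05, and lines are list medians. Diamonds are ratios from 1 to 3 reads and the triangle is CYP79F1, which had 0 reads in cop1-4 and is drawn at the lower bound of its fall. The medians of the 10 genes are −1.68 and −7.58, and those of the indolic branch −0.26 and −0.94.

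Across all 9 groups the order of levels had a common top. How many of all genes tested share it was not counted. For each of the 10 genes Col-0 at ZT6 was highest and vil1-1 at ZT6 next, and neither overlapped the group below it. Below these, MYB28 in Col-0 at ZT0 (21.1 ± 1.63 CPM) stood above vil1-1 at ZT0 (16.2 ± 1.09), which overlapped the double mutant at ZT6 (15.8 ± 2.41), which in turn overlapped hy5-215 (14.1 ± 1.65), and hy5-215 overlapped cop1-4 at ZT6 (14.1 ± 1.39); cop1-4 at ZT0 was lowest at 6.3 ± 0.936 CPM. For MAM1 and CYP83A1 Col-0 at ZT0 came next without overlap, at 8.27 ± 0.753 and 6.78 ± 0.928 CPM. For MAM3 cop1-4 and the double mutant at ZT6, at 2.24 ± 0.117 and 2.2 ± 0.879 CPM, came before every ZT0 group, and for MYB29 the double mutant at ZT6 did, at 0.607 ± 0.278 CPM, overlapping Col-0 at ZT0.

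Over the 9 group means the 45 pairs of the 10 genes had correlations of log2 levels from 0.788 to 0.989, with a median of 0.936. Each correlation describes 9 points, and the genes were read in the same libraries. How far the highest groups set these values was not tested. Of 14826 genes outside the lists with a mean of at least 5 CPM, those most like the mean profile of the 10 were AT5G58420 (r = 0.992), ATK3 (0.991), AT2G32060 (0.987), PPR596 (0.985) and TIM10 (0.984), each over 9 group means. Their range was far smaller: AT5G58420 went from 111 ± 6.14 CPM in cop1-4 at ZT0 to 231 ± 11 in Col-0 at ZT6, and TIM10, a protein of mitochondrial import, from 12 ± 1.47 to 25.7 ± 0.698. The other neighbouring pairs were less alike than CYP79F1 and CYP79F2: MAM1 and MAM3 share 83.8% of 1512 aligned coding bases and MYB29 and MYB76 77.6% of 966, each with a longest identical run of 30 bases.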

How the data were processed

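The authors deposited 1 table of raw read counts per gene for each library, whole numbers with no normalisation. The submitters' processing notes name STAR, FastQC, edgeR and the build TAIR10, with no versions. The libraries were made with a strand-marking NEBNext kit per the labels' protocols; for the counting step no strand setting is given in the sources used here. Besides 32678 identifiers, a table had 5 summary lines without a gene (3.76 to 9.18% of reads), left out of all sizes and fits. The reads assigned to genes came to 19.7 to 33.6 M per library (M, 1e6).

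edgeR 4.0.16 and limma 3.58.1 were run in R 4.3.3. filterByExpr over the 9 groups left 21448 genes, sizes were scaled by TMM, and a robust quasi-likelihood fit of group means, leaving 18 residual degrees of freedom, gave 20 contrasts, 5 of them differences between differences. Within each contrast, p-values were adjusted by Benjamini-Hochberg across all genes, with 0.05 as threshold. Each SE was derived from the test, as the absolute log2 change divided by the square root of the F statistic. A group with 0 reads was set at 3 reads over the group, giving a bound, and with 1 to 3 reads the ratio is given with a 95% exact Poisson interval. Alternatives were DESeq2 1.42.0 size factors, the DESeq2 Wald test, no filter, only the groups compared, a replicate block and leaving out each library. The script was tested on simulated counts.

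The 10 genes and the lists were chosen with earlier results of these data known. All 10 may be named in every contrast, and those not named in one are given there by counts; from each other list up to 3 called genes on each side with the smallest p may be named, and then followed. The 5 alike genes had the highest correlation with the mean profile. AOP2, of the side-chain list, was not analysed here. Same-numbered replicates did not deviate together: over 15 contrasts the correlations of their deviations ran from −0.0656 to 0.0798, so the numbers do not pair samples. Replicates of a group differed by more than sampling noise. Promoter windows and coding sequences came from RefSeq TAIR10.1, read with Biopython 1.88; figures were drawn with matplotlib 3.10.9.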

Additional observations from a re-analysis of the deposited data

Results flagged for a closer look

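A test of the difference between 2 genotype effects or 2 time-of-day changes (an interaction term in edgeR, adjusted over all genes) passed the threshold for 19 gene and contrast combinations, listed here as log2 values.

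For the vil1-1 effect in the cop1-4 background minus that in Col-0, the values at ZT0 were 0.86 for MYB28 and 2.7 for BAT5, the latter with 7 reads in its lowest group. At ZT6 they were 0.59 for MYB28, 1.61 for MYB29, 4.45 for BCAT4, 2.46 for MAM1, 1.63 for MAM3 and 4.2 for CYP79F2. Those for BCAT4 (edgeR adjusted p = 0.049, 3 reads in the lowest group) and MAM1 (edgeR adjusted p = 0.042) lay close to the threshold.

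For the change from ZT0 to ZT6 in a mutant minus that in Col-0, vil1-1 gave −1.24 for BAT5 and −1.97 for MAM3. In cop1-4 the values were −3.06 for BAT5, −1.71 for MAM3 and −4.34 for CYP79F2, the last with 5 reads in its lowest group. In the double mutant they were −0.45 for MYB28, −6.86 for MYB76, −6.16 for BCAT4, −5.94 for BAT5, −3.25 for MAM1 and −3.48 for MAM3. The value of MYB76 rests on 1 read in its lowest group (edgeR adjusted p = 0.048), and that of MAM1 lay at the threshold (edgeR adjusted p = 0.049). BAT5 and MAM3 were the genes named in all 3 lines. These terms share libraries with each other and with the comparisons above.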

How the results depend on the processing

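Over 2500 recomputed values of single genes (200 gene and contrast combinations), 2371 stayed on their side of the threshold, 91 lost the call and 38 gained it, with the same sign in each case. Of the 2371, 38 values of 16 combinations that did not pass in either fit changed sign; no called value did. The count of 10 of 10 genes held under all 11 alternatives for Col-0 and vil1-1 over time. It also held for vil1-1, cop1-4 and the double mutant against Col-0 at ZT6 and for the double mutant against vil1-1 at ZT6. That count includes MYB76, BCAT4 and CYP79F1, which passed the filter only because of Col-0 and vil1-1 at ZT6 and are no independent support. With only the groups compared, or with DESeq2, the vil1-1 by cop1-4 term at ZT0 had 5 calls in place of 2. DESeq2 gave 5 in place of 3 for the double mutant against cop1-4 at ZT0, 1 in place of 0 at ZT6, and 7 in place of 3 for the cop1-4 by time term.

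Leaving out 1 library at a time gave 2 to 4 calls for vil1-1 against Col-0 at ZT0, 1 to 2 for the vil1-1 by time term, 1 to 3 for cop1-4 by time, 2 to 6 for the double mutant by time, 3 to 6 for the double mutant over time, 3 to 6 for vil1-1 by cop1-4 at ZT6 and 0 to 1 for the double mutant against cop1-4 at ZT6. Over all genes, vil1-1 by time had 480 calls, 1114 with only the groups compared and as few as 243 without 1 library; the double mutant against cop1-4 at ZT6 had 3827, 2483 with only the groups compared and 2337 without replicate 3 of cop1-4. The cause of these shifts was not tested.

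The replicate block, although the numbers do not pair samples, moved no count of calls by over 1.5 times; it gave 5 in place of 4 calls for vil1-1 against Col-0 at ZT0, and 8 in place of 9 for cop1-4, where MAM3 was at an adjusted p of 0.054 (edgeR). Depth limits the genes with few reads: in cop1-4 at ZT0 a count of 0 allows up to 0.053 CPM.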
